A study of Mus musculus with 3 samples.

Results

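The 9 genes described here mark tissue macrophages, monocytes and the first component of complement, and were taken by symbol from the 32285 genes of each matrix: C1qa, C1qb, C1qc, Mrc1, Adgre1, Lyz2, Ms4a7, Cx3cr1 and Ccr2. The study placed frozen uterine sections from pregnant mice on Visium slides, whose spots each capture the RNA of a small patch of tissue holding several cells. There were 3 libraries of 1 group, uterus at pregnancy day 7.5, from females kept with littermates to 8 weeks of age and mated with stud males, with no further treatment. The labels call the libraries biological replicates (1 and 2 together, 3, and 4), so the first library cannot be divided between its 2 replicates. No strain, allele or agent was named, so every comparison below is between tissue regions of these libraries.

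C1q is the recognition molecule of the classical complement pathway, built from the products of 3 genes. In most tissues it is made mainly by resident macrophages rather than by the liver, which supplies most other complement proteins. Around implantation, uterine macrophages are known to be scarce in the forming decidua and more frequent in the muscle wall and the outer stroma.

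Depth differed between libraries: 1773, 1080 and 1086 spots with at least 1000 unique molecular identifiers (UMIs) were kept, 3939 of 3978 deposited, with medians of 8038, 26543 and 28286 UMIs per deposited spot. Spots were grouped into 17 regions by genes other than those tested. Of these, 16 entered the fits, through 45 sums of counts per library and region. Myh11, a contractile protein of smooth muscle, reached 3507 ± 1098 CPM (UMIs of the gene per 1000000 UMIs; mean ± SD, n = 3) in region 4, and Gzma, a granzyme of natural killer cells, 855 ± 311 CPM in region 2. Prl3d1, a placental lactogen of trophoblast giant cells, reached 1807 ± 596 CPM in region 13, so muscle, lymphocytes and conceptus of the labelled tissue were all represented. Libraries shared between 676 and 825 spot barcodes pairwise, since these barcodes are array positions reused on every slide.

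The C1q genes lie side by side on mouse chromosome 4 (GRCm38), from 136880129 to 136898803 on the minus strand, a span of 18675 bases in which C1qb, C1qc and C1qa follow one another. Upstream sequences are shown because the C1q genes and Mrc1 varied together across regions. RefSeq's GRCm38.p6 promoter table matched 7 of the 9 genes, and C1qa and Adgre1 were not among them. A search of the 250 bases before each RefSeq start for GAGGAA, on either strand (TTCCTC), a core sequence bound by the myeloid factor PU.1, found it in Mrc1, C1qb and C1qc. It was not in those windows of Lyz2, Ms4a7, Cx3cr1 or Ccr2, and 23.3% of 32851 promoter windows of this length held it. The Cx3cr1 window lay wholly inside the annotated gene, and only 17 bases of the Ccr2 window lay before its gene. Capitals mark the motif, and the sequences, 5′ to 3′ on each gene's strand, stop before the gene's earliest annotated base.
C1qb: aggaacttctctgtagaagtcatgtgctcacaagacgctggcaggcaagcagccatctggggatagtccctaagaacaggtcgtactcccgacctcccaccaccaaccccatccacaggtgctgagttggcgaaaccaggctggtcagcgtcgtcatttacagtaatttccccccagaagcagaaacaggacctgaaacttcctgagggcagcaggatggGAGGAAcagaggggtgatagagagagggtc
C1qc: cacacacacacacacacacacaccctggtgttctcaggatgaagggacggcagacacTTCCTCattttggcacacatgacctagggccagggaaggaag
Mrc1: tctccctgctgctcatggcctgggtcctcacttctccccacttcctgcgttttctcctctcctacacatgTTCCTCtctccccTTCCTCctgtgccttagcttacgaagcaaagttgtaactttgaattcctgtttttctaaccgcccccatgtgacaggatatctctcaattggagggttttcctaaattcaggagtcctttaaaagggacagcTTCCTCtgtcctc
Lyz2: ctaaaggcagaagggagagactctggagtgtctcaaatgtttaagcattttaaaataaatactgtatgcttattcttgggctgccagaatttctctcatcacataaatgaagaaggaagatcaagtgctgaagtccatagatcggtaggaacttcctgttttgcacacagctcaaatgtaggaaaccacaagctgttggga
The motif began 180, 167 and 35 bases before the start of Mrc1, 30 bases before that of C1qb and 193 bases before that of C1qc. The sequences cover chr4:136886201-136886450 (minus strand, C1qb), chr4:136893066-136893164 (minus strand, C1qc), chr2:14229164-14229391 (plus strand, Mrc1) and chr10:117282322-117282522 (minus strand, Lyz2). These are matches of letters, and binding was not measured.

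Across whole libraries the C1q genes were well sampled. C1qa gave 2994 UMIs in the kept spots (40.2 ± 3.16 CPM, mean ± SD, n = 3), C1qb 4398 (57.6 ± 13.8 CPM) and C1qc 2710 (37.0 ± 5.82 CPM). Lyz2, which encodes lysozyme and is made by macrophages, monocytes and neutrophils, gave 11296 UMIs (157 ± 22.7 CPM). The surface genes were sparser. Ccr2, the chemokine receptor that brings monocytes out of the blood, gave 833 UMIs, and Mrc1, the mannose receptor CD206 of resident macrophages, gave 684. Ms4a7, a membrane protein of macrophages, gave 428, and Adgre1, which encodes F4/80, gave 365. Cx3cr1, the fractalkine receptor, gave only 80 UMIs and failed the filter on low counts, so 8 of the 9 genes were tested. These totals show how well each gene was sampled, and levels of different genes within a region were not tested against each other.

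All 3 C1q genes were concentrated in a few regions. Their summed level was highest in region 4, led by the muscle and matrix genes Pcp4, Mylk and Postn, at 513 CPM in replicates 1 and 2, 763 in replicate 3 and 629 in replicate 4. It was lowest in region 13, led by H19, Ceacam15 and Plet1, at 10.3, 7.61 and 4.59 CPM. In region 4 the lowest library, at 513 CPM, lay just under the highest of region 7, at 514 CPM, and above those of all other tested regions. Next came region 14 (Ckb, Pcp4, Postn; 455 ± 34.9 CPM, n = 2), region 7 (Penk, Col6a3, Rcn3; 454 ± 54.6), region 10 (Penk, Col6a3, Ifi27l2a; 328 ± 64.5) and region 11 (Sfrp4, Penk, Igfbp3; 302 ± 17.6). Among these neighbours the library ranges of regions 14 and 7 overlapped, as did those of 10 and 11. Regions 6 (Gzmd, Gzmg, Ifitm1; 158 ± 47.3 CPM) and 2 (Gzmd, Gzmg, Srgn; 124 ± 37.0) held intermediate levels, with overlapping ranges. The remaining tested regions averaged at most 70.2 CPM, in region 9 (Tdo2, Cxcl14, Rcn1).

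**Figure D1:**
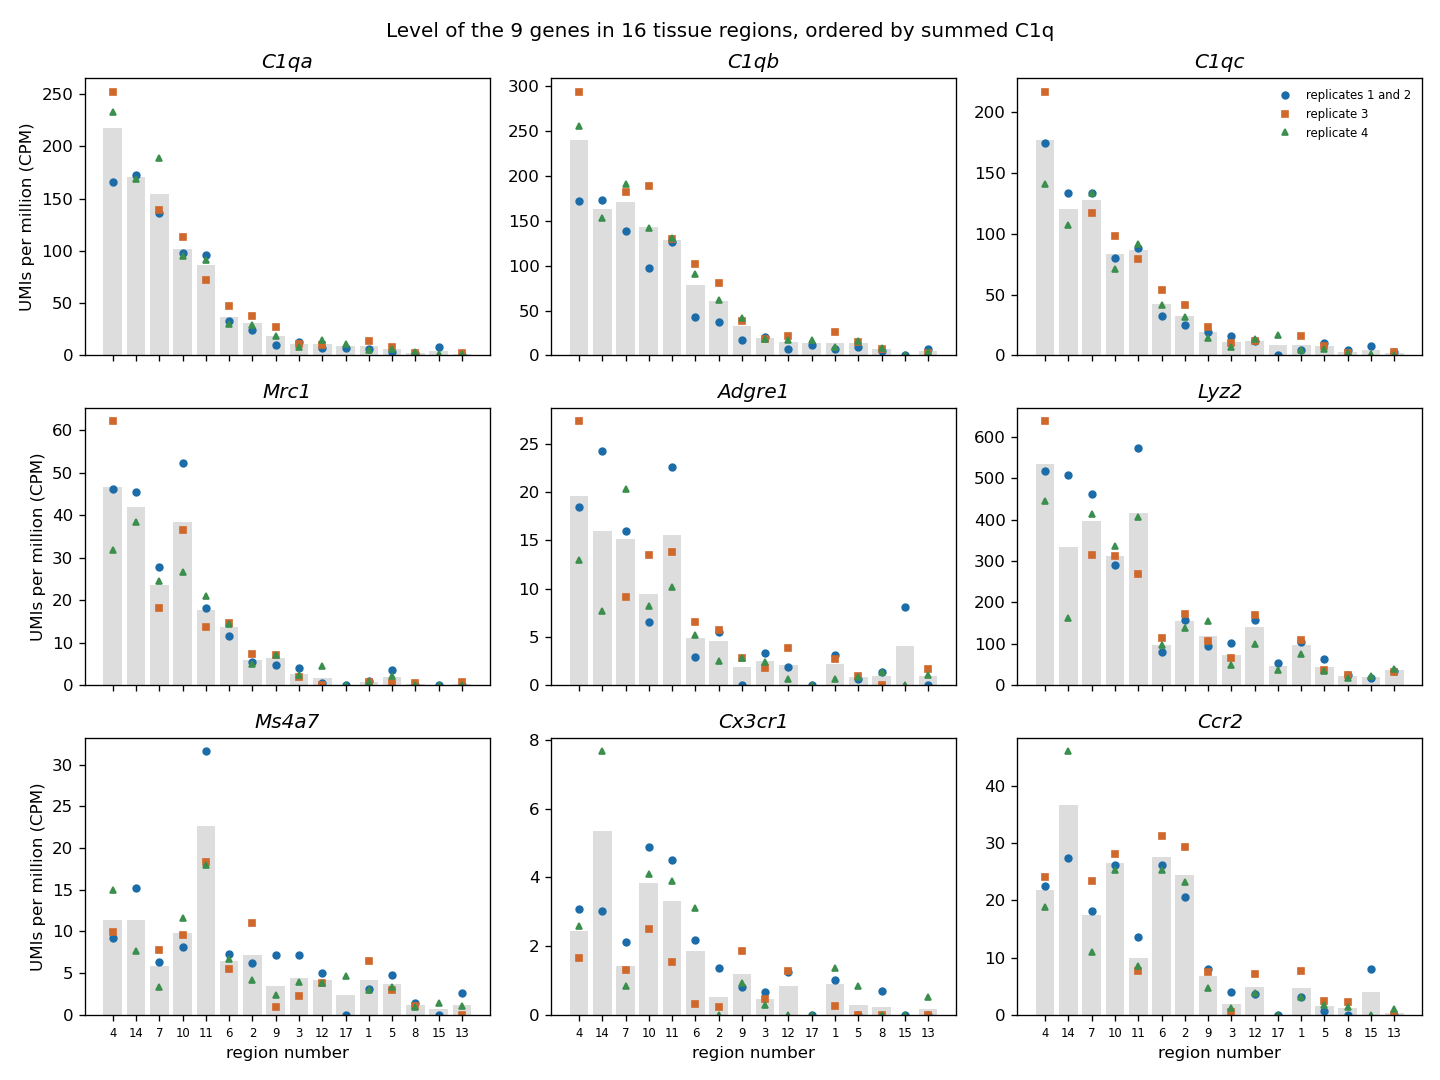
Level of each of the 9 genes (CPM, linear axis) in the 16 tested regions, ordered by summed C1q; grey bars are means and symbols the libraries. C1q, Mrc1, Adgre1 and Lyz2 are highest at the left, Ms4a7 peaks in region 11, and Ccr2 stays high in regions 6 and 2.

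Regions 4, 7, 10, 11 and 14, grouped after their values were seen, held 72.3%, 52.1% and 66.3% of the C1q UMIs of the libraries in the order given above. They held 22.1%, 16.97% and 18.68% of all UMIs and 35.9%, 26.5% and 29.2% of spots. Their spots were shallower than most: in region 4 the medians were 6508, 15059 and 14916 UMIs. Spots were therefore thinned to 3000 UMIs, which left out 168, 2 and 3 shallower spots. At that depth 67.6%, 79.7% and 71.6% of region 4 spots held a C1q UMI, against 2.63%, 0% and 1.85% in region 13 (1 of 38, 0 of 42 and 1 of 54 spots, with exact upper limits of 13.8%, 8.41% and 9.89%). Over all spots the thinned share averaged 29.6%, and the unthinned shares were 46.0%, 72.4% and 66.8%.

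**Figure D2:**
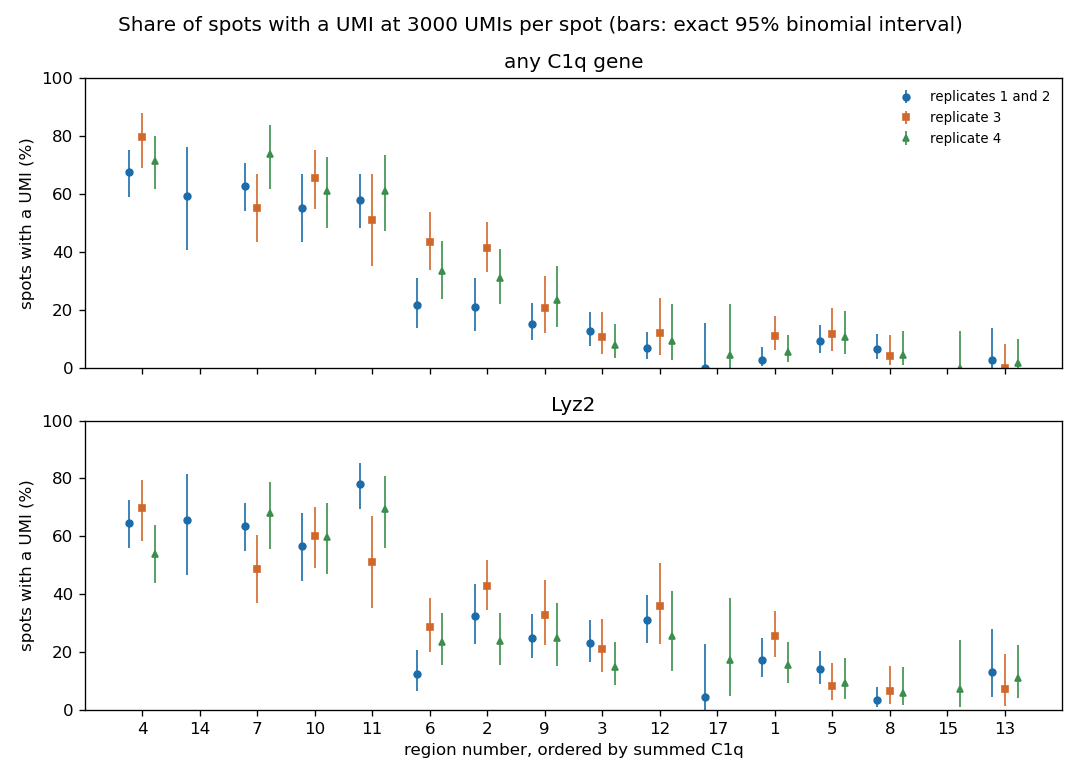
Share of spots (%) with a UMI of any C1q gene (top) or of Lyz2 (bottom) after thinning to 3000 UMIs per spot, by region and library; bars are exact 95% binomial intervals, which cover counting error only. For C1q, regions 4, 14, 7, 10 and 11 stand above the others, and for Lyz2 region 13 stays above 0.

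The log level in each region was then set against the average log level of the rest (edgeR quasi-likelihood test, library as a block). A gene was called where its p, Benjamini-Hochberg adjusted over 6480 genes, was under 0.05 and its log2 fold change was 1 or more in size. In region 4, 8 of 8 members were higher, where 17.3% of all genes tested were. Regions 10 and 11 also had 8 of 8 higher, against 15.1% and 11.4% of all genes. Regions 7 and 14 had 7 of 8, the exception being Ms4a7, against 14.8% and 9.54%. Region 14 rested on 2 libraries and mostly on shallow spots of the first (143 spots, median 2100 UMIs), and held 68636 CPM of adult globin, a product of red blood cells. Without replicates 1 and 2 it was 1 library of 20 spots, assumed to vary like the other regions, and 4 of the 9 members then tested were called, against 3.23% of all genes.

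The size of a fitted change needs care for 4 members. C1qb had 0 UMIs in region 15, Mrc1 in regions 15 and 17, and Adgre1 and Ccr2 in region 17, and a region at 0 lowers the mean log level that the other regions are compared with. Fits without the small regions 14, 15 and 17, an alternative chosen after seeing the data, are therefore given beside theirs. In those fits too, 8 of 8 members were called higher in region 4, against 15.8% of 6069 genes. Of the 6480 genes tested, 1340 had a region at 0 UMIs. Fold changes of genes other than the members are given from the main fit only.

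The C1q genes changed alike in region 4. C1qa stood at 166, 252 and 233 CPM there (replicates 1 and 2, replicate 3, replicate 4), a log2 fold change of 3.55 ± 0.13 (SE; adjusted p = 1.02e-26, edgeR). C1qb stood at 172, 294 and 255 CPM, a log2 fold change of 3.32 ± 0.15, or 2.92 without the 3 small regions. C1qc stood at 174, 217 and 141 CPM, a log2 fold change of 3.25 ± 0.16. Of the 3 genes, only C1qc had every library of region 4 above every library of region 7. On the linear scale the 3 genes in region 4 were 4.98, 4.17 and 4.67 times the mean of the other regions.

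Mrc1 followed C1q most closely among the receptors. It stood at 46.2, 62.1 and 31.8 CPM in region 4, and its fitted log2 fold change of 4.05 ± 0.27 became 3.59 without the small regions (adjusted p = 8.94e-17, edgeR, with all regions). On the linear scale its level there was 4.52 times the mean of the other regions. Region 14 followed at 45.5 and 38.4 CPM (15 and 5 UMIs) and region 10 at 52.2, 36.6 and 26.7 CPM, and the ranges of these 3 regions overlapped. Lymphatic and other specialised endothelium can also express Mrc1. In region 4, 4 of the 6 measured lymphatic and sinusoidal endothelial genes were higher, against 17.3% of all genes. Ccl21a, a lymphatic chemokine, was higher by 6.23 ± 0.15 on the log2 scale, and the others were Mmrn1, Prox1 and Reln. Prox1 had 31 UMIs in all kept spots. A gene that sparse passes the filter on low counts only through regions where it is high. The summed level of that list ranged from 150 to 348 CPM in region 4 and from 165 to 167 CPM in region 10, and its part in the Mrc1 level was not tested. Ccl21a shares near-identical copies in the mouse genome, so its count is uncertain.

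Adgre1 stood at 18.5, 27.3 and 12.98 CPM in region 4 and was higher there by 2.73 ± 0.34 (log2; adjusted p = 5.44e-09, edgeR), or 2.50 without the small regions. Regions 14, 11, 7 and 10 followed with overlapping ranges, and every library of region 10 was above every library of region 6, the next in order. The call in region 10 (log2 fold change 1.63) was lost without replicate 3 (adjusted p = 0.056).

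Lyz2 had a broader distribution. It stood at 517, 637 and 445 CPM in region 4 (log2 fold change 2.31 ± 0.15, adjusted p = 7.39e-18, edgeR) and at 573, 269 and 405 CPM in region 11, ranges that overlapped. In region 13 it was still at 33.5, 33.0 and 40.3 CPM. Neutrophils, another source of lysozyme, are marked by S100a8 and S100a9, which were lower in region 4 (log2 fold changes of -1.66 ± 0.28 and -2.09 ± 0.57). Of the 4 neutrophil genes tested, Mpo, the granule enzyme myeloperoxidase, was higher there by 1.80 ± 0.42, and Cxcr2 was not called. The neutrophil list summed to 83.1 to 234 CPM in region 4 and to 4590.5 to 5584 CPM in region 1, where Lyz2 averaged 96.0 CPM. This sum is mostly S100a8, which had 81112 UMIs in all kept spots, against 3156 for S100a9 and 143 for Mpo. It is therefore a level of S100a8 more than of the list. Of the 12 genes listed, 9 had under 100 UMIs in all kept spots: Csf3r had 94, Ltf 58, Retnlg and Cxcr2 49 each, Camp 14, Mmp8 7, Ly6g 2, and Elane and Ngp 0. The part of neutrophils in the Lyz2 level was not tested. Of the 50-base windows of the longest Lyz2 transcript, 15.4% also occur in Lyz1, which had 11 UMIs in the sums.

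Ms4a7 had an order of its own. Its level in region 11 was 31.6, 18.4 and 18.0 CPM, above every library of every other tested region (log2 fold change 2.44 ± 0.30, adjusted p = 7.54e-09, edgeR). In region 4 it was 9.23, 9.93 and 14.9 CPM, a log2 fold change of 1.36 ± 0.32. That call was lost without replicate 4 (adjusted p = 0.059), with at least 5000 UMIs per spot (adjusted p = 0.11) and with no minimum of UMIs (log2 0.30, adjusted p = 0.67). Its call in region 10, a log2 fold change of 1.01, was lost without replicate 4 (adjusted p = 0.10), against the pooled other spots (0.060) and at clustering resolution 1.0 (0.075). It fell under the minimum fold without the small regions (0.93), with no filter on low counts (0.988) and with no library block (0.992). In region 7 it was 6.39, 7.81 and 3.39 CPM and was not called.

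Ccr2 was shared between the muscle and matrix regions and the granzyme regions. In region 6 it stood at 26.1, 31.2 and 25.3 CPM, in region 2 at 20.6, 29.3 and 23.2, in region 10 at 26.1, 28.0 and 25.3, and in region 4 at 22.6, 24.0 and 18.8. The ranges of regions 6, 10 and 2 overlapped, and region 4 overlapped region 2 but not 6 or 10. Region 14 was higher on average, at 27.3 and 46.1 CPM, from 9 and 6 UMIs. The log2 fold change of Ccr2 was 2.40 ± 0.23 in region 6 (adjusted p = 4.28e-12, edgeR) and 2.35 ± 0.22 in region 2, or 1.99 and 1.95 without the small regions. On the linear scale its levels in regions 6 and 2 were 2.55 and 2.21 times the mean of the other regions. Regions 2 and 6 together held 38.4%, 56.3% and 45.3% of the Ccr2 UMIs but 16.8%, 27.9% and 15.9% of all UMIs. The natural killer list summed to means of 5064 and 4559 CPM in regions 2 and 6, and its part in the Ccr2 level was not tested. In region 11 Ccr2 stood at 13.6, 7.65 and 8.59 CPM. It was called higher there with 2 of 3 libraries in that direction, and lost the call without the small regions (log2 fold change 0.78, adjusted p = 0.061), without replicates 1 and 2 (adjusted p = 0.10), without replicate 4 (0.15) and against the pooled other spots (0.94). Of its 50-base windows 2.27% also occur in other genes.

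Regions 6 and 2 had few other calls. In region 6, 3 of 8 members were higher (Mrc1, C1qb and Ccr2), against 12.6% of all genes, and in region 2, 2 of 8 (C1qb and Ccr2), against 9.14%. The C1qb call in region 2 rested on the choice of reference: its log2 fold change was 1.12 ± 0.21 against the mean of the other regions, but 0.02 (adjusted p = 0.94) against the pooled other spots, and its linear level was 0.86 times the mean of the other regions. In region 6, the calls of C1qb and Mrc1 were likewise lost against the pooled other spots (log2 0.25 and 0.38, adjusted p = 0.14 for each), leaving Ccr2 as the 1 gene called. Without the small regions, C1qb fell under the minimum fold in both regions (log2 0.63 in region 2 and 0.91 in region 6).

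Cx3cr1 was too sparse to rank. Its highest mean over 3 libraries was in region 10, at 4.89, 2.50 and 4.10 CPM, from 3, 5 and 6 UMIs. It was at 0 UMIs in regions 15 and 17, where 3 UMIs over the group would be 3.58 and 3.32 CPM, so its absence there was not detectable at this depth.

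**Figure D3:**
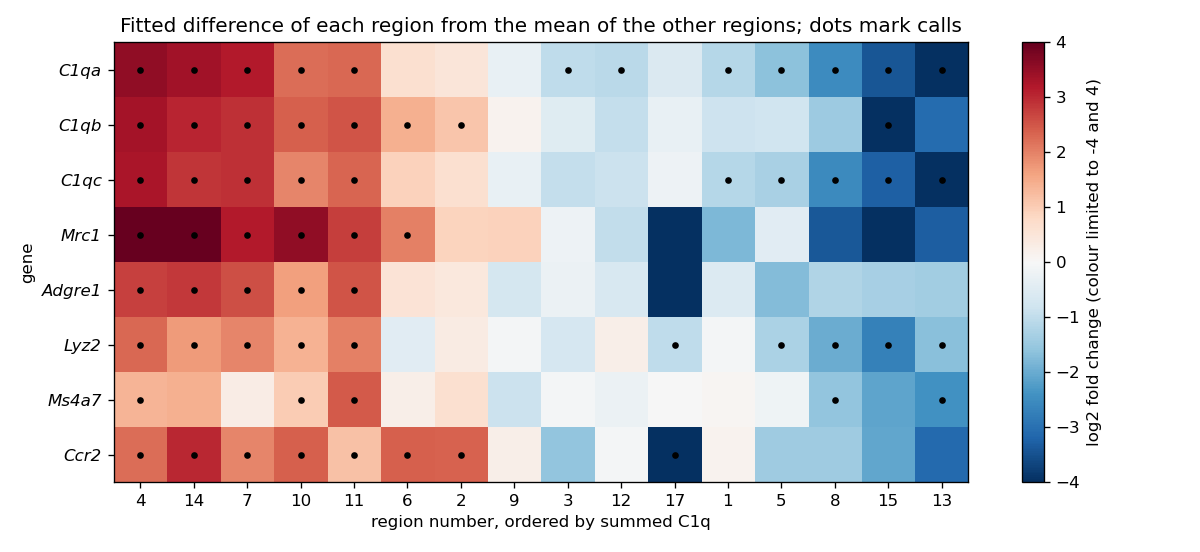
Fitted log2 fold change of 8 genes in each region against the mean of the other regions (colour, limited to -4 and 4), with dots on called pairs. Calls of higher level fill regions 4, 14, 7, 10 and 11 except for Ms4a7 in 14 and 7; dark blue cells of Mrc1 and Adgre1 in region 17 are genes at 0 UMIs there, whose fitted size depends on the model.

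Lower levels were called in regions 1, 3, 5, 8, 12, 13, 15 and 17, with 21 of 128 pairs of gene and region lower and 43 higher, against 6.36% and 11.6% of all pairs. In regions 3 and 12 only C1qa was called, and it fell under the minimum fold without replicate 3 (log2 -0.95 and -0.87). In region 1, C1qa and C1qc did so without replicate 4 (-0.97 and -0.54). The Lyz2 call in region 17 was lost with RLE scaling factors (log2 -0.93) and with DESeq2 (-0.89). That of Ccr2, at 0 UMIs there, was lost with DESeq2 (adjusted p = 0.091, Wald test). In region 13, C1qa fell by 4.07 ± 0.50, C1qc by 4.30 ± 0.61, Ms4a7 by 2.41 ± 0.70 and Lyz2 by 1.67 ± 0.26 (log2, edgeR), 4 of 8 members against 9.80% of all genes. The same 4 genes were lower in region 8, led by the prolactin-family gene Prl3c1 with Krtdap and Sbsn (10.9% of all genes). The other members could not be called lower in these regions, because a gene at 0 UMIs in 1 region can meet the null of this contrast at no cost. Of the 1340 tested genes with such a region, all 218 lower calls were in a region at 0 itself. Without regions 14, 15 and 17, 8 of 8 members were lower in region 13 (16.7% of all genes) and 8 of 8 in region 8 (17.1%). The count of 4 became 2 in each region without replicate 4 (5.37% of all genes in region 13 and 4.99% in region 8), when C1qc and Ms4a7 too had 0 UMIs in region 17.

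In region 15, led by Bex1, Mif and Emb and with 596 ± 110 CPM of the yolk sac apolipoprotein Apoa1 (n = 2), 4 of 8 members were lower, against 13.3% of all genes. Without replicate 4 the region was 1 library of 26 spots, assumed to vary like the others, and 1 of 8 was called, against 4.49% of all genes. C1qb had 0 UMIs there against 73.0 CPM in the other sums, at least 20.4-fold lower (3 UMIs over the group as floor). C1qa had 2 UMIs, 23.6-fold lower with a counting interval of 6.54 to 195. In region 5 (Gpnmb, Sprr2h, Krtdap) C1qa, C1qc and Lyz2 were lower, against 6.93% of all genes, and 6 of 8 members without the small regions (10.8% of all genes).

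Whether the other members kept their proportion to C1q was tested with limma on log2 of each gene's CPM over summed C1q CPM. In region 4, 1 of 5 other members was lower relative to C1q, against 92.3% of 6477 genes. That gene was Ms4a7, by 1.78 ± 0.63 (log2; adjusted p = 0.0073). In region 7, 1 of 5 was lower, again Ms4a7, by 2.31 ± 0.63 (adjusted p = 0.00079), against 91.2% of all genes. Mrc1 and Adgre1 were not called in regions 4, 7, 10, 11 or 14, with log2 differences from -0.69 to 1.18 and SEs of 0.58 to 0.75, so changes of this size could have been missed. Lyz2 was lower relative to C1q in region 6 by 1.34 ± 0.36 (adjusted p = 0.0035; 26.8% of all genes) and in region 14 by 1.47 ± 0.44 (adjusted p = 0.0020; 89.1%). The first was lost without replicate 3 (adjusted p = 0.086) and the second without replicate 4 (0.094). Ccr2 relative to C1q was higher in region 2 by 1.56 ± 0.57 and in region 6 by 1.38 ± 0.57, and neither passed the threshold (adjusted p = 0.057 and 0.055), where 2.1% and 2.33% of all genes were called higher. It was called higher in region 1 by 1.26 ± 0.57 (adjusted p = 0.045, lost without replicate 3 or replicate 4) and in region 15 by 1.69 ± 0.69 (0.024, lost without replicates 1 and 2). It was called lower in region 11 by 1.24 ± 0.57 (0.040, lost without replicate 3 or replicate 4) and in region 17, where it had 0 UMIs.

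In regions poor in C1q, large shares of all genes were higher relative to it, among them Lyz2 and Ms4a7 as well as Ccr2 in region 1 (64.0% of all genes), Lyz2 in region 12 (49.9%), Lyz2, Adgre1 and Ms4a7 in region 13 (94.3%), and Adgre1 as well as Ccr2 in region 15 (81.4%). Mrc1 and Adgre1, both at 0 UMIs there, were lower in region 17 (11.7%), and in region 11 the lower call of Ccr2 stood beside 86.1% of all genes. Over all regions 9 pairs of gene and region were higher relative to C1q and 8 lower. Of these, Lyz2 in regions 1 and 13, Ms4a7 in regions 4 and 7 and Ccr2 in region 17 were still called with each library left out in turn, and each of the others was lost without 1 or more of the libraries.

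The mix of the C1q genes also varied. C1qb made up 36.8%, 45.7% and 44.7% of the C1q UMIs of the libraries. In region 4 its share was 33.6%, 38.5% and 40.6%, and in region 6 it was 39.3%, 50.4% and 56.1%. Within libraries the share was higher in region 6 than in region 4 by 11.04 ± 4.94 percentage points (SD, n = 3) and in region 2 by 10.4 ± 1.22. Both differences had the same sign in 3 of 3 libraries and an exact two-sided sign-flip p of 0.25, the smallest that 3 libraries allow. These 2 comparisons were chosen after the values were seen.

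Each C1q gene was also found in a larger share of the spots with another C1q gene than of the spots without. The shares pool all regions of a library, so they carry the regional differences above, and co-occurrence within a region was not tested. After thinning to 3000 UMIs, C1qa was found in 31.9%, 32.8% and 30.1% of spots with C1qb or C1qc, and in 6.56%, 7.26% and 7.002% of spots without. Lyz2 was found in 60.2%, 52.9% and 53.4% of spots with any C1q UMI and in 23.8%, 25.1% and 19.6% of those without. For Ccr2 the shares were 5.21%, 5.14% and 4.601% against 2.11%, 4.12% and 2.51%. Fewer cells of a type and less RNA per cell cannot be told apart in spots.

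Over the 45 sums, which share libraries and depth, log2 levels centred within library correlated between members from r = 0.94 (C1qa with C1qc) down to 0.62 (Ccr2 with Ms4a7). The 3 other genes most like C1qa were Pf4 (r = 0.94), a chemokine of platelets and resident macrophages, Fxyd1 and Cfp, the complement regulator properdin. Those most like C1qb were Bgn (0.95), P3h3 and Lix1l, and those most like C1qc included Fxyd1 (0.92) and Fkbp10. Mrc1 was nearest to Col3a1 (0.94), Cfp and Col6a2, and Adgre1 to Cfp (0.85), Rtn2 and Lefty1. Lyz2 was nearest to Msrb3 (0.94), H2-Ab1 and Dpysl3, Ms4a7 to Mpeg1 (0.86), a pore-forming protein of macrophages, Bgn and Cd74, and Ccr2 to Tyrobp (0.90), an adaptor of myeloid and natural killer receptors, Cd52 and Prrt1.

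Stromal matrix genes moved with the members: 7 of 8 were higher in region 4, as were 8 of 8 smooth muscle genes, with Myh11 higher by 7.14 ± 0.11 (log2). Of all genes 17.3% were higher there. The summed stromal matrix list averaged 13411, 15745, 12263, 11129 and 8590 CPM in regions 4, 7, 10, 11 and 14, against 245 CPM in region 13. Across spots its Spearman correlation with summed C1q was 0.63, 0.68 and 0.76 in the libraries (1605, 1078 and 1083 spots, sharing depth), and 0.52, 0.47 and 0.56 with C1q thinned. The part of matrix-rich tissue in the C1q level was not tested.

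Of the other macrophage genes, 21 of 29 were higher in region 4 and 0 lower (median log2 fold change 1.57, against 0.07 over all genes). Over all genes 17.3% were higher there and 6.45% lower. Across spots, the summed list had Spearman correlations with C1q of -0.01, 0.18 and -0.06 in the libraries (0.02, 0.15 and -0.01 with C1q thinned). That sum weighs genes by their counts and mostly follows Cd63, with 112569 UMIs. Tyrobp, the next, had 17139, Pf4 1722 and Folr2 431, so the correlation does not describe the sparser genes. The genes higher in region 4 were led by Folr2, a folate receptor of resident macrophages, higher by 5.004 ± 0.225, by Pf4 (3.53 ± 0.18), by Gas6, a ligand of phagocytic receptors (2.74 ± 0.16), and by Laptm5 (2.24 ± 0.18). Of the 29 genes 10 had a region at 0 UMIs, which can raise their fitted changes in other regions. All 6 measured MHC class II genes, which present antigen, were higher, H2-Ab1 by 2.80 ± 0.14, with H2-Eb1, Cd74 and H2-Aa. Of 8 monocyte genes 3 were higher (Fn1, F13a1 and Vcan, of which Fn1 and Vcan are also matrix genes). Of 12 natural killer genes 11 were higher there, Gzmb by 2.34 ± 0.32, with Gzmc, Nkg7 and Gzma, but against pooled other spots 0 were higher and 3 lower. With that reference 12.4% of all genes were higher in region 4 and 12.2% lower.

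Csf1r and Cd68, both often used as macrophage markers, went the other way. Csf1r averaged 557 ± 173 CPM in region 1 (Srd5a1, Mrgprg, Lgals3) and 474 ± 44.6 CPM in region 13, against 65.7 ± 5.53 CPM in region 4. It was higher in region 13 by 3.10 ± 0.10 (log2) and did not differ in region 4 beyond its error (-0.02 ± 0.15), and Cd68 was higher in region 13 by 1.93 ± 0.16. Over the sums the members correlated with Csf1r from -0.20 to -0.45 and with Cd68 from -0.12 to -0.38. In region 1, 9 of 29 other macrophage genes were higher and 1 lower, where 13.6% of all genes were higher; beside Csf1r and Cd68 the higher ones included Lyve1 (2.27 ± 0.19) and Stab1 (1.54 ± 0.10), both also made by endothelium. In region 17, 6 of 29 were higher and 4 lower, against 12.5% and 12% of all genes. In region 13, 2 of 29 were higher, which were Csf1r and Cd68, where 13.5% of all genes were higher. A further 10 were lower, against 9.8% of all genes (median -1.57, against -0.04 over all genes), among them Fcer1g (-2.02 ± 0.28) and Ctss (-2.23 ± 0.33). There, 8 of 9 measured trophoblast genes were higher, Prl3d1 by 7.96 ± 0.12.

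**Figure D4:**
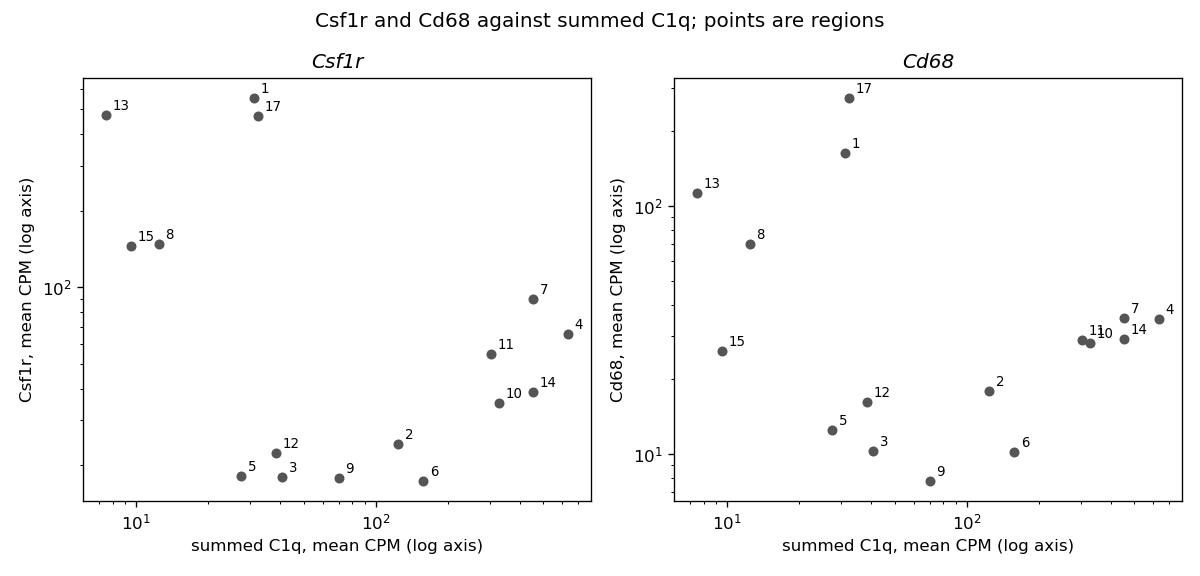
Mean CPM of Csf1r (left) and Cd68 (right) against mean CPM of summed C1q, both on log axes; each point is a region, numbered. Regions 1, 13 and 17 have the highest Csf1r and Cd68 with low C1q, and regions 4 and 7 combine high C1q with intermediate Csf1r.

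Of the 6 measured ligands of Ccr2, Cx3cr1 and Csf1r, the last not among the 9 genes, 5 were higher in region 4 and 0 lower. Over all genes 17.3% were higher there and 6.45% lower. Ccl8, a chemokine that draws monocytes, averaged 123 ± 39.9 CPM there (log2 fold change 4.83 ± 0.22), followed by Csf1, the macrophage growth factor that signals through Csf1r (3.16 ± 0.23), and by the Ccr2 ligands Ccl2 (2.66 ± 0.46) and Ccl12 (2.59 ± 0.51). The one not called was Cx3cl1, the ligand of Cx3cr1, at 18.9 ± 6.23 CPM in region 4 and 54.8 ± 10.6 CPM in region 11. Of these 6 ligands 5 had a region at 0 UMIs, which can raise their fitted changes in other regions. In region 13, Cx3cl1 was the 1 ligand called lower, by 1.68 ± 0.33, against 9.8% of all genes. Without the small regions 4 of 6 were lower there, against 16.7% of all genes.

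The rest of complement was higher in region 4 for 15 of 25 measured genes and lower for 1, Masp1, a protease of the lectin pathway (-1.48 ± 0.30). Of all genes 17.3% were higher in region 4 and 6.45% lower. Fcna, a ficolin of the lectin pathway, was higher by 5.28 ± 0.25, C3, the central component, by 3.32 ± 0.17, properdin Cfp by 3.75 ± 0.22, and C4b, cleaved after C1 is activated, by 3.73 ± 0.25. Of the 25 genes 10 had a region at 0 UMIs, which can raise their fitted changes in other regions. In region 13, 8 of 25 were lower, among them C1s1, the protease that joins C1q in C1 (-3.41 ± 0.39), and its inhibitor Serping1 (-1.64 ± 0.19), and 2 were higher, C1qbp and Cr1l. Of all genes 9.8% were lower in region 13 and 13.5% higher. Without the small regions 15 of 24 were lower there, against 16.7% of all genes.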

How the data were processed

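The authors' deposited matrices hold UMI counts per gene and spot, not normalized. They were made with Space Ranger 1.2.2 per the file headers, and Cell Ranger and mm10 are named in the submitters' processing notes; the sources used here give neither the annotation nor how spots over tissue were selected. Spots with at least 1000 UMIs were kept. A random draw put 16142 genes in a first set and 16143 in a second; regions are Leiden clusters (leidenalg 0.10.2, resolution 0.6) of 1 set, without any of the 240 listed symbols. Doublet calling does not apply to spots. Counts were summed per library and region (at least 20 spots; 123593 to 4539941 UMIs) and tested with edgeR 4.0.16 (TMM, filterByExpr, quasi-likelihood, library as a block); limma 3.58.1 tested ratios to C1q (prior count 0.5). Code was tested on simulated data. All 9 members are named; of the lists, up to 4 called genes with the smallest p in the regions of highest and lowest C1q, and the 3 genes most correlated with each member (a few genes these rules name are not reported here); a few further genes, such as Csf1r and Cd68 levels, Masp1, Ly6g, C1qbp, Cr1l and Cx3cl1, were named after their values were seen or as marker checks. Members and lists were chosen with earlier results of these data known. The other lists, of T and B cell, mast cell, dendritic, endothelial, decidual, gland, embryo and proliferation genes, are reported under other observations. The p-values of the fits rest on the spread of the sums left after region and library were fitted, pooled over all regions. Sums of the same library were treated as independent beyond its block. Alternatives were DESeq2 1.42.0, RLE factors, other filters, references and clusterings, and each library left out. No paired analysis between groups applies, since there is 1 group.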

Additional observations from a re-analysis of the deposited data

Results flagged for a closer look

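Region 16, led by the epithelial genes Prap1 and Wfdc2, entered no fit, because only 1 library gave it at least 20 of its 42 spots. Its C1q signal lies outside the comparisons above. It held 102 UMIs of the C1q genes in 611733 UMIs (167 CPM), above the 4.90 CPM that 3 UMIs would give. Lyz2 had 120 UMIs there (196 CPM) and Mrc1 had 2.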

How the results depend on the processing

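Calls of higher level kept their number best: 43 pairs became 32 to 47 over the 15 alternatives, none beyond 1.5 times. Pairs called lower went from 21 to 32 without regions 14, 15 and 17 (chosen after seeing the data), 33 with DESeq2, 56 against pooled other spots, 37 at resolution 0.3, and 8 to 19 with a library left out (8 without replicate 4). By region, the higher calls moved from 3 to 5, 1 and 5 in region 6 (no minimum fold, pooled spots, resolution 0.3), from 8 to 5 in region 10 (pooled spots), and from 7 to 4 in region 14 without replicate 1-2 (range 4 to 7). Lower calls in region 5 moved from 3 to 6, 6, 7, 5 and 1 (without regions 14, 15 and 17, DESeq2, pooled spots, no minimum of UMIs, at least 5000 UMIs). In regions 8 and 13 they moved from 4 to 8, 7, 8 and 8 (the first 3 settings and resolution 0.3), with 2 to 4 when a library was left out, and in region 15 from 4 to 8 at resolution 0.3, with 1 to 4. At resolution 0.3 region 15 had no cluster of its own. It was matched to the same cluster as region 13, with Jaccard overlaps (shared over joint spots) of 0.28 and 0.71. Other regions, such as 4, 10 and 14, also shared a cluster there. The counts at that setting, the 37 lower pairs among them, therefore repeat some clusters. Leaving out a library leaves regions 14 and 15 with 1 library, assumed to vary like the rest. Reversed signs were C1qb in region 2 at resolution 0.3 (-0.040, adjusted p = 0.92) and C1qa in region 3 with no minimum of UMIs (0.085, adjusted p = 0.92). The clusters matched to regions 2 and 3 had Jaccard overlaps of only 0.22 and 0.42 with them. The first was also the match of regions 9 and 12. Both signs therefore describe partly other spots, and the cause of the reversals was not tested. Relative to C1q, 9 higher and 8 lower pairs became 15 and 14 with a prior count of 2, and 5 to 13 and 5 to 14 with a library left out. The share of spots with C1q UMIs, 29.6% at 3000 UMIs, was 13.7% at 1000 and 61.7% unthinned. The library block moved no count by over 1.5 times (42 higher without it). Depth limits Cx3cr1 and every gene in regions 15 and 17.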

Other observations

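Further gene groups were counted in the regions of highest and lowest C1q. Over all genes, 17.3% were higher and 6.45% lower in region 4, and 13.5% and 9.8% in region 13. In region 4, 3 of 3 measured mast cell genes were higher, Cma1, a chymase, by 5.46 ± 0.52 and Mcpt4 by 4.89 ± 0.68 (log2, edgeR), with Tpsb2, and 3 of 4 dendritic cell genes were (Irf8, Batf3 and Cd209a). The 1 measured T and B cell gene, Trac, was higher by 3.46 ± 0.51. Sparse genes pass the filter on low counts only through regions where they are high, so these counts are partly fixed by it. Cma1 had 105 UMIs in all kept spots, Mcpt4 38, Cd209a 93 and Trac 169. The listed mast cell genes Cpa3 (33 UMIs) and Fcer1a (6) did not pass. Of 10 endothelial genes 4 were lower there (Cdh5, Emcn, Pecam1 and Kdr), and of 12 decidual genes 7 were lower and 1 higher, with Hand2 at -2.13 ± 0.11. The gland genes Prss29 and Prss28 were higher and Epcam lower, of 7 measured. Of 9 trophoblast genes 2 were lower (Prl3d1 and Plac1), of 9 embryo and yolk sac genes 1 (Apoa1), and 0 of 7 proliferation and 0 of 5 globin genes were called. Against the pooled other spots these counts differed in region 4: 7 of 9 trophoblast, 7 of 9 embryo and yolk sac and 3 of 5 globin genes were lower, and of the gland genes 0 were higher and 4 lower. With that reference 12.4% of all genes were higher and 12.2% lower in region 4. In region 13, 7 of 9 embryo and yolk sac genes, 5 of 5 globin genes, 4 of 7 gland genes (Krt8, Krt19, Krt18 and Epcam) and 3 of 4 neutrophil genes were higher, whereas 5 of 8 smooth muscle, 5 of 8 stromal matrix and 4 of 6 MHC class II genes were lower.

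The mean levels of some chemokines and of C3 differed between regions rich in C1q. Ccl8 was at 123 ± 39.9 CPM in region 4 and at 18.8 ± 5.44 CPM in region 10, whereas Ccl2 was at 10.0 ± 2.45 and 18.6 ± 3.39 CPM and Ccl7 at 9.98 ± 1.54 and 17.8 ± 4.55 CPM. For each of these 3 genes the libraries of regions 4 and 10 did not overlap. The share of all genes for which this holds was not counted, so no result is drawn from it. C3 was at 566 ± 110 CPM in region 11, above its libraries in region 4 (322 ± 114 CPM). These pairs were chosen after their values were seen, and the differences were not tested.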
